A study of Mus musculus with 7 samples.

Results

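MicroRNAs of the miR-199 and miR-214 family were measured in kidneys of megabladder mice and of their wild-type counterparts. The members were taken by name: mmu-miR-199a-3p, mmu-miR-199a-5p, mmu-miR-199b*, mmu-miR-214 and mmu-miR-214* (mmu-, for mouse, is left out below). They are 5 of the 611 mouse microRNA names on the array. The 4 members other than miR-214* passed the filter on dim signal, above background on 3 or more arrays, and so were among the 213 microRNAs tested. The homozygous megabladder group (mgb-/-) had 3 male mice, numbered 2, 3 and 4, and the wild-type group (mgb+/+) had 4 male mice, numbered 1 to 4. All were labelled as 4 weeks old, where the protocol gives 3.5 to 4 weeks, and whole kidney RNA of each mouse went on 1 array. The series design counts 4 mutant kidneys; mouse 1 of the megabladder group was not analysed here.

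The megabladder line carries a disruption of Myocd, the gene of myocardin, a coactivator that drives smooth muscle genes. Its bladder lacks normal smooth muscle and the kidneys dilate behind the obstructed outflow, so that the kidney is exposed to obstruction as well as to the mutation, and these arrays do not separate the 2. MicroRNA arrays do not read Myocd messenger RNA and so cannot check the genotype.

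A microRNA is cut from a hairpin precursor, whose arms give a 5p and a 3p product, and bases 2 to 8 of the mature strand, the seed, pair with target transcripts. A star in the older names of the array marks the arm thought to be the rarer one. In mammals the miR-199a-2 and miR-214 hairpins are made from 1 long non-coding transcript, Dnm3os, which runs opposite to the dynamin gene Dnm3. The transcription factor Twist1 is known to activate it, and it is active in mesenchymal cells and fibroblasts. miR-214 and miR-199a have been reported at raised levels in fibrotic kidneys of mice, and both are used as markers of activated stroma.

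Mature sequences come first, because they decide what each probe set can tell apart. They are from RefSeq on GRCm38.p6, are written 5′ to 3′, and carry the seed in capitals. Of the 5 members 4 were matched. miR-214 is listed there as miR-214-3p and miR-214* as miR-214-5p.
miR-199a-3p: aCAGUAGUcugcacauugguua
miR-199b-3p: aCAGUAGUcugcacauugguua
miR-199a-5p: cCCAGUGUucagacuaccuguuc
miR-214: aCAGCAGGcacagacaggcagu
miR-214*: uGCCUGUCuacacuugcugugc

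miR-199a-3p and miR-199b-3p had 0 differences over 22 bases. Signal named miR-199a-3p can therefore come from any of 3 hairpins, at chr1:162217883-162217904 (plus strand), chr9:21496498-21496519 (minus strand) and chr2:32318524-32318545 (plus strand). miR-199a-5p comes from the hairpins on chromosomes 1 and 9, at chr1:162217844-162217866 (plus strand) and chr9:21496537-21496559 (minus strand). miR-214 and miR-214* have 1 locus each, at chr1:162223438-162223459 and chr1:162223397-162223418, both on the plus strand. miR-214 shares its seed with miR-761, which was on the array but not well above background on enough arrays to be tested.

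The hairpins are shown next, since they give the layout of the family; the arms listed by RefSeq are in capitals.
Mir199a-2: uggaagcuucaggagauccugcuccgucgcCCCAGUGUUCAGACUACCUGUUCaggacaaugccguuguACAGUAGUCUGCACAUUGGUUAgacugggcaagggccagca
Mir199a-1: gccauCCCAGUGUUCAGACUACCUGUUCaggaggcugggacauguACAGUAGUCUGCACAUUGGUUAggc
Mir199b: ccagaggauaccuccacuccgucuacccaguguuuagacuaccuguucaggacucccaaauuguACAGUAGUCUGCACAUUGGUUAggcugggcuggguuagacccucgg
Mir214: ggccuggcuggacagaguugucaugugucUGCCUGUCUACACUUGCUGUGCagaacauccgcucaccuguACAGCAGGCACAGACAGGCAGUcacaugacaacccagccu

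Mir199a-2 (chr1:162217814-162217923) and Mir214 (chr1:162223368-162223477) lie 5444 bases apart on the plus strand, within Dnm3os and inside Dnm3, which runs on the minus strand. Mir199b (chr2:32318460-32318569, plus strand) lies inside Dnm1 and Mir199a-1 (chr9:21496495-21496564, minus strand) inside Dnm2, each on the strand opposite to its dynamin gene. The array name miR-199b* stands for the 5p arm of Mir199b. Bases 26 to 48 of that hairpin matched miR-199a-5p at all but 1 of 23 positions, the difference being C10U, counted from 1 at the 5′ end of miR-199a-5p. Whether the probes for miR-199a-5p and miR-199b* each take up some of the other microRNA was not tested.

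The promoter of Dnm3os is shown because 4 of the 5 members can be cut from its transcript. It spans chr1:162217373-162217672 on the plus strand of GRCm38.p6, around the transcript's start, and is given by RefSeq as follows, with a CArG box in capitals.
Dnm3os promoter: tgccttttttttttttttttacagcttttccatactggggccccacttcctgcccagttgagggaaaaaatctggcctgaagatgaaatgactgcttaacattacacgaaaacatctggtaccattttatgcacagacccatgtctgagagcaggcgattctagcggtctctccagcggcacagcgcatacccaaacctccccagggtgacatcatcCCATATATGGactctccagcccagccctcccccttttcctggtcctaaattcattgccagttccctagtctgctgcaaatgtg

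The CArG box is the site bound by serum response factor, the partner of myocardin, and 1 match began 33 bases before the start. Among 32544 RefSeq promoter windows of the same length, 1.64% held a match. The E-box CANNTG, the kind of site that Twist1 binds, had 3 matches, and 72.3% of all windows held at least 1. Both motifs read the same on the 2 strands and their matches did not overlap. These are matches of letters, chosen for search with the sequence known, and say nothing about whether a factor binds there.

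The arrays each had 190 to 210 mouse microRNAs above background, with the fewest in wild-type mouse 4. All shared 1 slide and 1 scan, with the genotypes in different rows of the slide, so an effect of the row and one of the genotype cannot be told apart. The value used for scaling, the 75th percentile, was 223.5 to 333.4 scanner units on megabladder arrays and 348.1 to 495.8 on wild-type arrays, without overlap. Scaled in this way, 3 arrays stood apart for the members: megabladder mouse 3 was the highest array for each of the 4 tested members. Wild-type mice 3 and 4 were the lowest for each of them. Under some other scalings wild-type mouse 3 was not among the lowest for miR-199a-5p and miR-214. Results that rest on these 3 arrays are given with and without them.

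Levels below are log2 of the scaled signal and compare 1 microRNA between mice. They cannot rank different microRNAs by abundance, since probes differ in brightness. In bulk tissue, more cells of a type and more RNA per cell cannot be told apart.

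miR-199a-3p, the arm shared by all miR-199 hairpins, measured 7.93, 8.31 and 7.59 in megabladder mice 2, 3 and 4, against 7.64, 7.72, 7.39 and 7.34 in wild-type mice 1 to 4. Megabladder mice 2 and 3 lay above every wild-type mouse, and mouse 4 lay below wild-type mice 1 and 2. The mean was 7.94 ± 0.36 in megabladder kidneys (SD, n = 3) and 7.52 ± 0.18 in wild-type kidneys (SD, n = 4). The difference of 0.42 on the log2 scale, or 1.34-fold, had a 95% interval of -0.02 to 0.86 and an adjusted p of 0.231 in limma, with the Benjamini-Hochberg adjustment over all 213 microRNAs. The difference did not pass the threshold of 0.05. Its 2-sided exact permutation p was 0.143, before any adjustment.

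miR-199a-5p, the other arm of the miR-199a hairpins, is known to repress caveolin-1, a component of membrane caveolae. It stood at 5.27, 5.70 and 5.16 in the 3 megabladder mice, against 5.04, 5.06, 4.94 and 4.91 in the wild-type mice. In levels averaged over 2 probes, it was the 1 member whose genotypes did not overlap: the lowest megabladder value lay 0.10 above the highest wild-type value. Means were 5.37 ± 0.28 in megabladder (SD, n = 3) and 4.99 ± 0.07 in wild-type kidneys (SD, n = 4), a difference of 0.39 (1.31-fold, interval 0.05 to 0.72) with an adjusted p of 0.210 in limma. The 2-sided exact permutation p was 0.0286, the smallest that 35 splits of 3 and 4 arrays allow, before any adjustment.

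miR-199b*, from the hairpin inside Dnm1, had the widest difference of the family. Megabladder mice 2, 3 and 4 gave 6.87, 7.40 and 6.67, and wild-type mice 1 to 4 gave 6.62, 6.78, 6.09 and 6.08. Wild-type mice 3 and 4 lay well under wild-type mice 1 and 2, so that the wild-type SD was as wide as the megabladder one. With means of 6.98 ± 0.38 in megabladder (SD, n = 3) and 6.39 ± 0.36 in wild-type kidneys (SD, n = 4), the difference was 0.59 (1.5-fold, interval 0.01 to 1.16, limma adjusted p 0.214, 2-sided exact permutation p = 0.114).

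miR-214, the 3p arm of its hairpin, had levels of 4.74, 5.22 and 4.49 in the megabladder mice, against 4.48, 4.54, 4.39 and 4.33 in the wild-type mice. Megabladder mouse 4 lay between wild-type mice 1 and 2, by gaps no wider than the largest standard error over spots of a member, 0.059 log2 units. The dim probe of miR-214 was not above background in megabladder mouse 4. On the brighter probe alone the genotypes did not overlap. It gave 5.72, 6.17 and 5.47 in megabladder mice 2, 3 and 4, against 5.32, 5.35, 5.27 and 5.14 in wild-type mice 1 to 4. Over both probes, the mean of 4.82 ± 0.37 in megabladder kidneys (SD, n = 3) compared with 4.44 ± 0.10 in wild-type kidneys (SD, n = 4). The difference was 0.38 (1.30-fold, interval -0.03 to 0.79, limma adjusted p 0.247, 2-sided exact permutation p = 0.0571).

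miR-214*, the 5p arm of that hairpin, was not well above background with any of its 4 probes, in either genotype. Its mean probe signals ran from -1.70 to 5.01 scanner units, and it has no level or fold here.

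**Figure D1:**
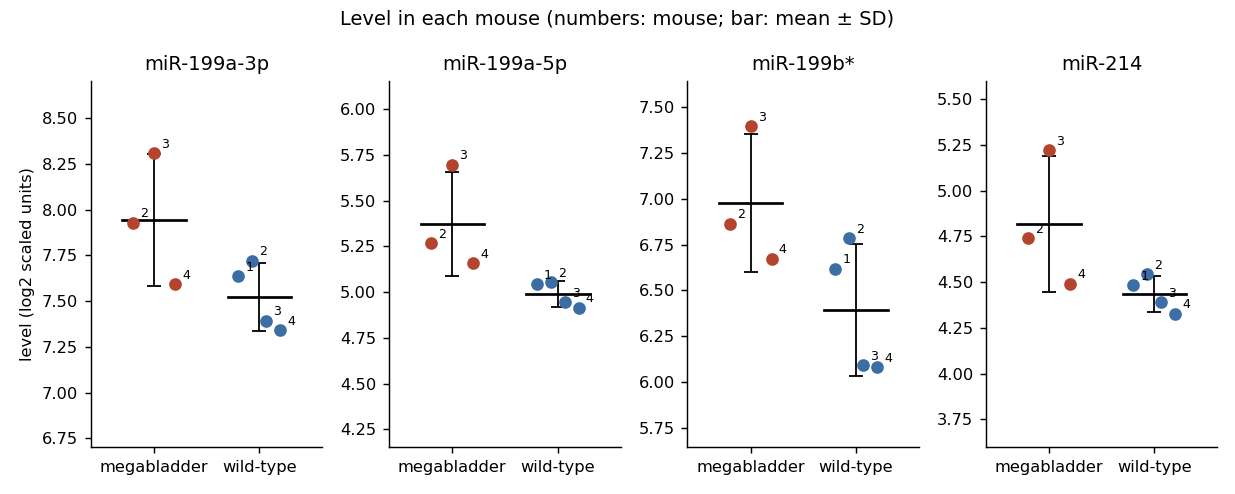
Level of each tested member (log2 of scaled signal, vertical axis) in every mouse, megabladder left and wild-type right in each panel, with the mouse number beside its point, a bar at the mean and whiskers of 1 SD. Megabladder mouse 3 is highest in each panel, from 5.22 for miR-214 to 8.31 for miR-199a-3p, and the genotypes separate in the miR-199a-5p panel only.

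Of the 4 tested members 0 passed the adjusted threshold, where 3.29% of all 213 microRNAs did (2.82% higher and 0.469% lower in megabladder kidneys). Unadjusted limma p-values lay under 0.05 for 2 of the 4, miR-199a-5p and miR-199b*, and 20.2% of all tested microRNAs were higher in megabladder kidneys by that measure. Groups without overlap were found for 1 of the 4, beside 18.8% of all microRNAs in the same direction. The median log2 fold change of the members was 0.40 (from 0.38 to 0.59), and that of all 213 was 0.09. Relative to that median of all microRNAs the members stood 0.30 to 0.50 higher.

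Each tested member was read by 2 probes, and all 8 probes had a higher mean in megabladder kidneys. The 2 probes of miR-199a-3p differed between genotypes by 0.39 and 0.45, those of miR-199b* by 0.55 and 0.62, those of miR-199a-5p by 0.46 and 0.31 and those of miR-214 by 0.52 and 0.25. In the last 2 microRNAs the smaller value belonged to a dim probe, which was at the floor of 11.4 scaled units in wild-type mice 3 and 4. For miR-199a-5p that probe was not above background in megabladder mice 2 and 4. For miR-214 it was not above background in megabladder mouse 4 and wild-type mouse 4. For miR-214 the overlap between genotypes thus rests on its dim probe, since the brighter probe had none. For miR-199a-5p the genotypes did not overlap on either probe. Differences read from a dim probe are measured in part against that floor.

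The members moved together from mouse to mouse. Over the 7 arrays the 6 pairs among the 4 tested members had Pearson correlations of 0.912 to 0.985, with a median of 0.962. The closest pair was miR-199a-5p with miR-214, at r = 0.985 (2-sided exact permutation p = 9.921e-04, adjusted over the 6 pairs p = 0.00149; Spearman rho = 0.964). miR-199a-3p with miR-214 gave r = 0.977 (exact p = 3.968e-04, adjusted p = 0.00119; rho = 0.964). miR-199a-3p with miR-199b*, which have only the Mir199b hairpin in common, gave r = 0.966 (exact p = 5.952e-04, adjusted p = 0.00119; rho = 0.964). The 2 arms of the miR-199a hairpins had r = 0.957 (exact p = 0.00179, adjusted p = 0.00179; rho = 0.893). miR-199b* with miR-199a-5p gave 0.915 (exact p = 0.00179, adjusted p = 0.00179; rho = 0.964), and with miR-214 it gave 0.912 (exact p = 1.984e-04, adjusted p = 0.00119), where the order of the 7 arrays was identical (rho = 1.0).

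These correlations share arrays, scaling factors and RNA samples. Across all 22578 pairs of tested microRNAs the median r was 0.116, and 2.96% of them reached 0.912 or more, among which are the 6 pairs of members. With the 2 arrays farthest from the median of the first microRNA left out, megabladder mouse 3 and either wild-type mouse 4 or megabladder mouse 2, r was 0.800 to 0.971. After the mean of each genotype was removed, r stayed at 0.835 to 0.988, with a median of 0.932, against 0.112 over all pairs. Unscaled signals gave a median of 0.956 for the members and 0.623 for all pairs. The scaled levels of the members had correlations of -0.37 to -0.23 with the log2 scaling factor of the array.

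**Figure D2:**
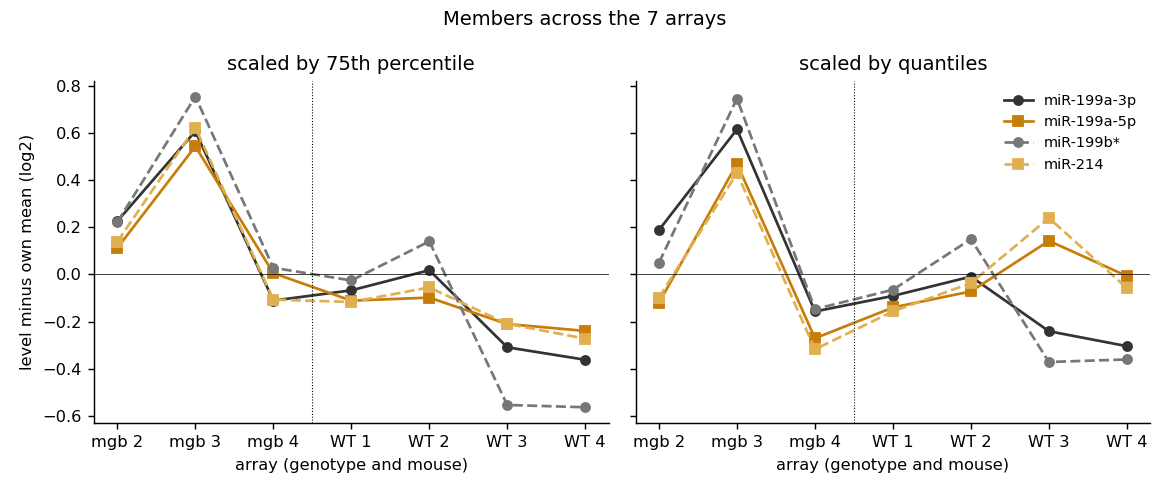
Each line follows 1 member over the 7 arrays, megabladder (mgb) left and wild-type (WT) right of the dotted line, as level minus the member's own mean (log2); lines join values of 1 member and imply no order of mice. Scaled by the 75th percentile (left panel) the 4 members share a peak in megabladder mouse 3, and scaled by quantiles (right panel) miR-199a-5p and miR-214 part from the other 2 in wild-type mice 3 and 4.

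As a mean over the 4 members, each centred on its own mean, megabladder mice 2, 3 and 4 stood at 0.17, 0.63 and -0.05 and wild-type mice 1 to 4 at -0.08, 0.00, -0.32 and -0.36. The order of mice was thus megabladder mouse 3, megabladder mouse 2, then megabladder mouse 4 and wild-type mice 1 and 2 close together, then wild-type mice 3 and 4 close together.

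**Figure D3:**
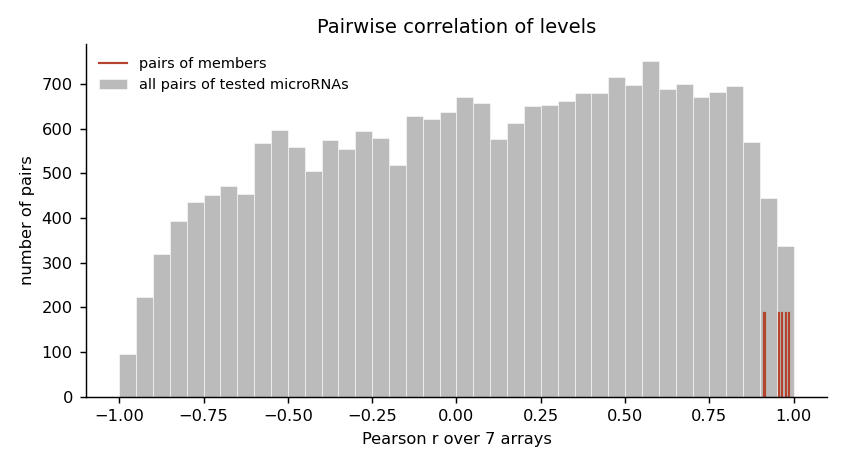
Number of pairs of tested microRNAs (vertical axis) by Pearson r over the 7 arrays (horizontal axis) for all 22578 pairs in grey, with the 6 pairs of members as red lines. The members lie between 0.912 and 0.985, at the right end of a wide distribution with a median of 0.116.

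How closely the members moved together depended on the scaling. When the arrays were brought to the same distribution by quantiles, miR-199a-3p with miR-199b* kept r = 0.961 and miR-199a-5p with miR-214 kept r = 0.977. The 4 pairs across these 2 groups had r of 0.517 to 0.631. The groups also differ in brightness. miR-199a-3p and miR-199b* had the brighter signals, and miR-199a-5p and miR-214 each had a dim probe at the floor in wild-type mice 3 and 4. The part of brightness in this grouping was not tested. In the authors' deposited table the first 2 pairs had 0.947 each and the other 4 had 0.393 to 0.755. With the normexp background correction the 6 pairs had a median r of 0.854 and a lowest r of 0.600. How alike the 4 members ran was thus less close with quantiles, with normexp and in the authors' deposited table than in the main scaling. The authors' deposited table may itself be scaled by quantiles, so it may not be independent of the quantile setting. In that table, miR-199a-3p was listed at 360, 445 and 248 units in megabladder mice 2, 3 and 4, against 283, 283, 248 and 248 units in wild-type mice 1 to 4. The authors' deposited table listed miR-199a-5p at 95, 124 and 84 units in the megabladder mice, against 84, 89, 97 and 95 units in the wild-type mice, so that the genotypes overlapped there. Megabladder mouse 3 was the highest for all 4 members in it.

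Differences between members within an array do not depend on a single factor per array, apart from the floor. miR-199a-5p minus miR-214 was 0.53, 0.47 and 0.67 in the megabladder mice, against 0.56, 0.51, 0.55 and 0.59 in the wild-type mice. The genotypes overlapped, with a difference of 0.003 and an interval of -0.13 to 0.14. The corresponding interval was -0.12 to 0.19 for miR-199a-3p against miR-214 and -0.19 to 0.27 for miR-199a-3p against miR-199a-5p. For miR-199b*, the level minus that of miR-214 was 2.13, 2.18 and 2.18 in the megabladder mice, against 2.14, 2.24, 1.70 and 1.75 in the wild-type mice. Wild-type mice 1 and 2 lay among the megabladder values or above them, and wild-type mice 3 and 4 lay about as far below as each other. The genotypes differed in it by 0.20 (interval -0.21 to 0.62; exact permutation p = 0.371, adjusted p = 0.686), and 0 of the 6 pairs of members passed after adjustment. Without wild-type mice 3 and 4 the same difference was -0.03. The dim probe of miR-214 was at the floor in these 2 mice, and with probes above background on all arrays, which leaves that probe out, the difference was 0.070. It was 0.10 with the brightest probe, 0.035 with scaling by all probes, 0.089 with no scaling, 0.370 with quantiles and 0.398 in the authors' deposited table. Leaving out wild-type mouse 3 gave 0.117 and leaving out wild-type mouse 4 gave 0.135.

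**Figure D4:**
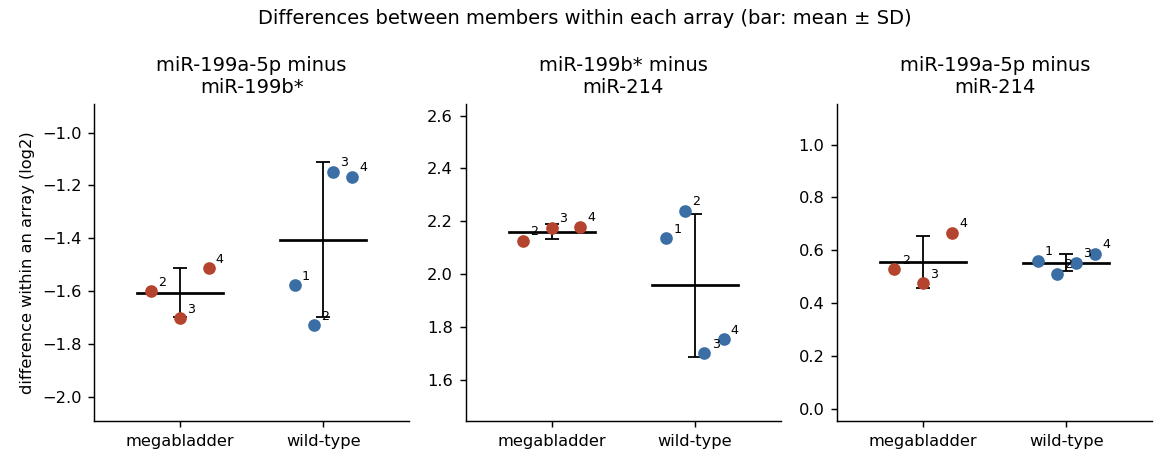
Difference between 2 members within each array (log2, vertical axis), megabladder left and wild-type right, with mouse numbers, means and whiskers of 1 SD; only the change between mice has meaning, since probes differ in brightness. miR-199a-5p minus miR-214 spans 0.47 to 0.67, and in the other panels wild-type mice 3 and 4 lie apart from the rest.

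Among arrays left out 1 at a time, leaving out megabladder mouse 3 lowered the differences most. Without megabladder mouse 3 the log2 fold changes were 0.24 for miR-199a-3p, 0.22 for miR-199a-5p, 0.38 for miR-199b* and 0.18 for miR-214, where the median over all microRNAs was 0.13. Without any 1 wild-type mouse they were 0.35 to 0.72, and without megabladder mouse 2 they were 0.42 to 0.64. Leaving out megabladder mouse 4 raised them, to 0.60, 0.49, 0.74 and 0.54 in the order above. Without wild-type mice 3 and 4 they were 0.27, 0.33, 0.28 and 0.30 in the same order. With all 3 of these arrays left out, a choice made after seeing the data, they were 0.08, 0.16, 0.07 and 0.10, and the median over all microRNAs was 0.10. These 3 arrays were chosen as the extremes of the members themselves, so smaller values follow from the choice and nothing is read from them.

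The direction also moved with the scaling. All microRNAs together had a median log2 fold change of 0.09 in the main scaling, -0.62 when scaled by all probes, -0.06 by the median, -0.14 by quantiles and -0.50 with no scaling. The 4 members were below 0 when scaled by all probes (-0.32 for miR-199a-3p, -0.26 for miR-199a-5p, -0.155 for miR-199b* and -0.19 for miR-214) and with no scaling (-0.03 to -0.19). Relative to the median of all microRNAs they were above it in each of these 5 scalings, by 0.31 to 0.52 for miR-199a-3p, 0.18 to 0.37 for miR-199a-5p, 0.47 to 0.52 for miR-199b* and 0.15 to 0.43 for miR-214. That is largely by construction where 1 factor per array is used. With the normexp background correction, where all microRNAs had a median of 0.42, miR-199a-3p was at 0.41, miR-199a-5p at 0.53, miR-199b* at 0.57 and miR-214 at 0.58.

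**Figure D5:**
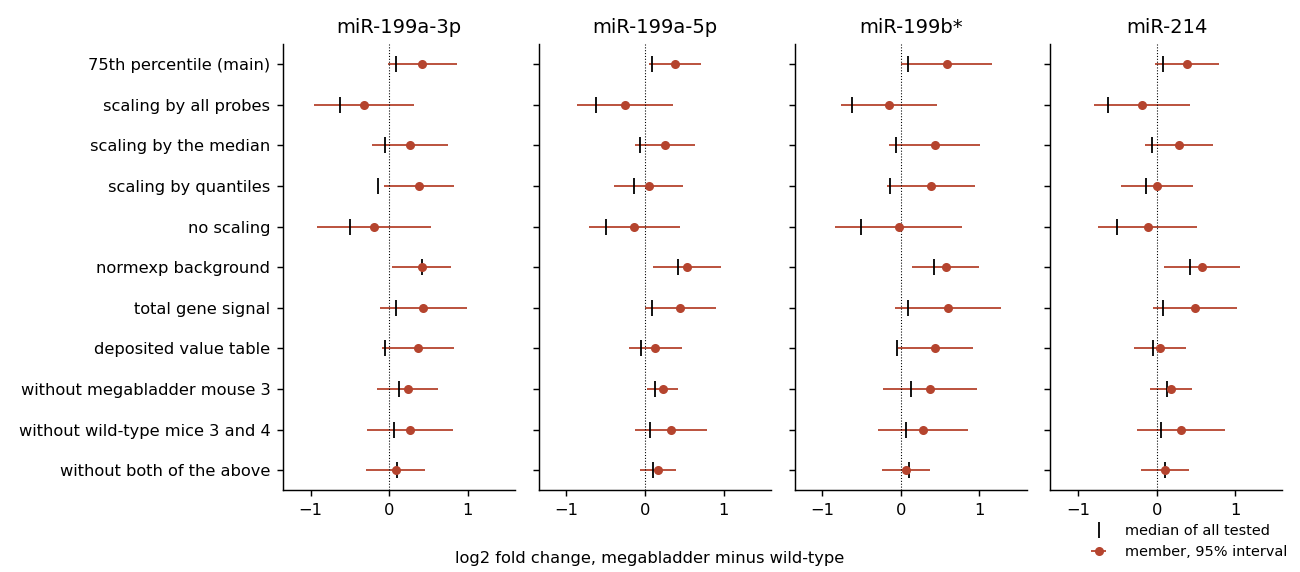
Log2 fold change of each tested member, megabladder minus wild-type (horizontal axis, with 95% interval), under each processing choice (rows), with a tick at the median of all tested microRNAs. The members lie right of that tick in the main scaling, at 0.38 to 0.59 against 0.09, and left of 0 when scaled by all probes or with no scaling. The lowest row leaves out megabladder mouse 3 and wild-type mice 3 and 4, the extremes of the members themselves.

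Outside the family, the microRNAs whose levels followed the mean of the members most closely were miR-30d (r = 0.955), miR-24 (0.955), miR-152 (0.949), miR-350 (0.948) and miR-652 (0.945). They were picked for this likeness over 7 arrays, so the values are a description. Their own differences between genotypes were smaller than those of the members, at 0.26 for miR-30d, 0.11 for miR-24, 0.17 for miR-152, 0.11 for miR-350 and 0.35 for miR-652, and none passed in limma. Scaled by quantiles, r was 0.778 for miR-30d, 0.765 for miR-24, 0.873 for miR-152, 0.0108 for miR-350 and 0.910 for miR-652. By member, the nearest microRNA outside the family was miR-24 for miR-199a-3p (0.955), miR-30d for miR-199a-5p (0.968), miR-652 for miR-199b* (0.978) and miR-350 for miR-214 (0.960). Among the other tested microRNAs, the first 3 places by likeness to miR-199a-3p went to miR-214, miR-199b* and miR-199a-5p. For miR-199b* the other members took places 2, 13 and 14.

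Other microRNAs of mesenchyme and fibrosis were listed for comparison. Of 16 listed, 14 were tested and 0 passed in limma, where 1, miR-21*, had an unadjusted p under 0.05. Of the 14, 9 had a higher mean in megabladder kidneys, and their median log2 fold change was 0.03, beside 0.09 for all microRNAs. miR-21, which rises in many models of fibrosis, measured 11.14, 11.08 and 11.04 in the megabladder mice, against 10.84, 10.73, 11.34 and 11.08 in the wild-type mice, a difference of 0.09. Its passenger arm miR-21* measured 4.05, 4.31 and 5.07 in the megabladder mice, against 3.57 in wild-type mouse 4 and the floor of 3.51 in the other 3 wild-type mice. Its difference of 0.95 (limma adjusted p 0.0551) missed the threshold, is read against the floor, and was highest in megabladder mouse 4, not mouse 3. miR-143 and miR-145, the microRNA pair of smooth muscle and pericytes that serum response factor and myocardin are known to activate, differed by 0.09 and 0.24. miR-130a differed by 0.27 and miR-152 by 0.17. miR-212, miR-140 and miR-140* differed by 0.05, 0.01 and 0.01. miR-22, miR-335-5p and miR-192 were at -0.10, -0.05 and -0.09, and miR-34a and miR-155 at -0.45 and -0.47.

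Markers of cell types were set beside the members. Summed over the tested markers of each list, scaled signal ran over 166.0 to 206.6 units in megabladder and 150.2 to 190.5 in wild-type kidneys for smooth muscle and pericytes (2 of 7 markers, miR-143 and miR-145). The muscle microRNAs miR-1, miR-133a and miR-133b were not well above background on enough arrays to be tested. For endothelium (4 of 4) the sums were 1463 to 1835 in megabladder and 1699 to 1769 in wild-type kidneys. For leukocytes (4 of 6) they were 139.0 to 200.3 in megabladder and 153.4 to 201.3 in wild-type kidneys. For tubule (8 of 9) the sums were 4302 to 4989 in megabladder and 4669 to 4905 in wild-type kidneys, and for epithelium (5 of 5) they were 1924 to 2128 in megabladder and 2043 to 2122 in wild-type kidneys. For erythroid cells (3 of 3) they were 1952 to 3724 in megabladder and 2129 to 2811 in wild-type kidneys. In every list above the genotypes overlapped and 0 markers passed in limma, where 1, miR-30d, had an unadjusted p under 0.05.

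Megabladder mouse 3, the highest for the members, had the lowest sum of the 7 mice for the markers of endothelium (1463), leukocytes (139.0), tubule (4302) and epithelium (1924), and for the mesenchymal microRNAs outside the family (5958). These sums are carried by the brightest microRNAs of a list, and not all markers went the same way. In megabladder mouse 3, miR-200c (6.93) and miR-141 (6.91) of epithelium, miR-204 (5.79) and miR-30d (8.16) of tubule, and miR-152 (6.81) and miR-130a (9.67) of the mesenchymal list were at their highest of the 7 mice. The bright miR-22 (10.62) and miR-192 (9.504) were at their lowest there, and miR-192 is counted in the tubule and the mesenchymal list. The smooth muscle sum of 183.2 in this mouse lay between those of the other megabladder mice. The part of these differences in the members' levels was not tested. Urothelial markers (3 of 3) summed to 115.4, 59.7 and 73.2 units in megabladder mice 2, 3 and 4, against 58.8 to 64.0 units in wild-type mice, so the mouse with the highest sum was not the one with the highest members. Among them, miR-205 averaged 4.74 in megabladder and was at the floor in wild-type kidneys (limma unadjusted p 0.00535, adjusted p 0.0712). Every wild-type value of miR-205 was the floor itself, so its difference and p-values are read against a constant and depend on that floor. miR-31 differed by 0.44 (limma unadjusted p 0.0456, adjusted p 0.214). It was at the floor in megabladder mouse 4 and in wild-type mice 1, 2 and 4. miR-203 went the other way, at -0.17, and was lowest of the 7 mice in megabladder mouse 3 (4.34).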

How the data were processed

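Total RNA of whole kidneys (100 ng per sample) was labelled with Cy3 and read on 1-colour Agilent mouse microRNA arrays, per the labels' protocols. The authors read spot intensity values out of the scans with Agilent Feature Extraction (version 10.7.3.1, per the file headers). In the deposited files these intensity columns are background-subtracted and not scaled between arrays. Intensity values also make up the authors' deposited value table; each column runs from 20 to 9741 with a median of 20. Its columns correlated with their own array's total gene signal at 0.982 to 0.989 (log2), and the direction is that of signal. Its scaling and centring are not given in the sources used here. Every column has the same highest value, as scaling by quantiles would give, so the table may not be independent of the quantile setting. Late in the alphabet some of its values lie far under the arrays' own signal, so that names there appear shifted, which was not checked further. It served as an alternative for 193 names only, which include the members.

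Outlier spots (3.52% to 3.84% per array) were left out, and 0 spots were saturated. Signals were averaged per probe, divided by the 75th percentile, on each array, of the 292 of 1857 probes detected on all 7 arrays, floored at 11.4 units and put on a log2 scale. A level is the mean over a microRNA's probes that were well above background, in at least 0.5 of their spots, on at least 3 arrays. Genotypes were compared, megabladder minus wild-type, with limma 3.58.1 (lmFit and eBayes, R 4.3.3) over 213 microRNAs, which was tested on simulated data. Single values were compared by 2-sided exact permutation over 35 splits, and correlations by exact permutation over all pairings of the 7 arrays. Intervals are 95% and the number of arrays limits the precision. Each label names a separate mouse. The members, lists, motifs and tests were chosen with earlier results of these data known. Named microRNAs are the members, the nearest outside the family by r, the tested mesenchymal list and up to 3 per marker list. Deviations of same-numbered mice of the 2 genotypes had r = -0.21, 0.0066 and 0.21 for mice 2, 3 and 4. Between mice of unlike number r ran from -0.29 to 0.32. So few values cannot show whether the numbers pair the mice, and the main test treats them as unpaired. Alternatives covered scaling, signal, background (normexp with offset 50, on the spot median because no spot mean was used here), the filter and floor on dim signal, the choice of probes, the test, a replicate block and arrays left out.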

Additional observations from a re-analysis of the deposited data

Results flagged for a closer look

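On the array of wild-type mouse 4, 190 microRNAs were above background, fewer than on the other wild-type arrays by a gap that passes Dixon's 95% critical value for 4 samples. Among 13 quantities examined this was the 1 that passed, and chance flags about 1 in 20 such groups. In the main scaling, wild-type mouse 4 is also 1 of the 2 arrays lowest for each tested member. Without wild-type mice 3 and 4 the members' log2 fold changes were 0.27 to 0.33.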

How the results depend on the processing

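The members past the threshold stayed at 0 of 4 in all 22 alternatives, with lowest limma adjusted p-values of 0.152 for miR-199a-3p, miR-199a-5p and miR-214 and 0.142 for miR-199b*. Signs turned under 2 scalings. With all probes the log2 fold changes were -0.32 for miR-199a-3p, -0.26 for miR-199a-5p, -0.155 for miR-199b* and -0.19 for miR-214 (members' median -0.22). With no scaling they were -0.19, -0.14, -0.027 and -0.12 in that order (members' median -0.13). The exact permutation test placed miR-199b* (0.59) at p = 0.114, where its unadjusted limma value was under 0.05. The members' median was 0.23 to 0.57 without 1 array in turn, lowest without megabladder mouse 3 and highest without megabladder mouse 4. It was 0.092 without megabladder mouse 3 and wild-type mice 3 and 4.

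The median r of the member pairs (0.962) was 0.926 with all probes, 0.614 with quantiles, 0.854 with normexp, 0.687 in the authors' deposited table, 0.857 without megabladder mouse 3 and wild-type mice 3 and 4, and 0.907 to 0.973 without 1 array in turn. The largest absolute difference in log2 fold change among miR-199a-3p, miR-199a-5p and miR-214 (0.04) was 0.13 with all probes, 0.37 with quantiles, 0.16 with normexp and 0.32 in the authors' deposited table. It was 0.01 to 0.10 without 1 array in turn. miR-199b* minus miR-214 was -0.0053 with normexp, -0.027 without wild-type mice 3 and 4 and -0.035 without megabladder mouse 3 as well. miR-199a-5p minus miR-199b* was 0.048 and 0.096 in those last 2 settings, and miR-199a-3p minus miR-199b* was 0.015 in the last. The cause was not tested.

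The 7 calls over all microRNAs became 0 with all probes (107 with an unadjusted p under 0.05), quantiles (45), normexp (53), no filter (40) and a floor of 1 unit (30). They became 1 in the authors' deposited table and without wild-type mice 3 and 4. They became 2 with the median, with total gene signal and without megabladder mouse 3 and wild-type mice 3 and 4. They became 4 with probes detected on all arrays, 13 with limma's trend and 69 with no scaling. They were 0 to 19 without 1 array in turn: 19 without megabladder mouse 3, 1 without wild-type mouse 4, and 0 without megabladder mouse 2 (32 unadjusted) or wild-type mouse 1 (47), 2 (46) or 3 (26). With the replicate block there were 28, and the members were at 0.46, 0.40, 0.66 and 0.40 with 0 called. Whether the shared numbers pair the mice is not known. Array number and dim probes at the floor limit the precision.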
